A study of Mus musculus with 2 samples.

Results

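The transcripts described here are the 65071 unspliced autosomal entries, with names starting with U, in a list of 110003 transcripts of mouse embryonic stem cells. They are the U entries on the 19 autosomes that held exactly 1 exon after deposited blocks with gaps under 30 bp were joined. They made up 59.2% of the list and 81.0% of the 80337 autosomal U entries, and are called members below. A further 3125 unspliced U transcripts lay on chromosome X, 42 on chromosome Y and 2166 on unplaced or other sequences, and were not members.

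The RNA came from V6.5 cells, an established line of mouse embryonic stem cells, grown on a layer of irradiated mouse embryonic fibroblasts that could add their own RNA. DNase-treated total RNA was either selected for polyadenylated RNA or depleted of ribosomal RNA. Each gave 1 library, with dUTP used in the second cDNA strand so that the strand of the RNA was kept. The deposited list gives positions, strand and blocks on mm9 but no value per library, so no comparison between the 2 libraries was made, no p-value is given and the depth behind each transcript is unknown. Transcripts of 1 list are not replicates: the 95% intervals below (Wilson for shares, order statistics for medians) cover counting error only, and the range over the 19 autosomes is given as the spread.

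Unspliced RNA in a strand-specific library can come from single-exon genes, from introns of longer precursors, from antisense transcription across genes, and from RNA released downstream of a cleavage site or upstream of a promoter. Some long noncoding RNAs are themselves largely unspliced. The imprinted RNAs Airn and Kcnq1ot1, transcribed from the paternal chromosome and antisense to Igf2r and Kcnq1, are well-known examples in mouse. Short pieces of such a long RNA can appear as separate entries when read coverage is broken, and the list does not say which pieces belong together.

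Of the members, 64536 were deposited as 1 block and 535 became unspliced only through joining. Their 576 block gaps had a median of 18 bp, 252 of them were 20 to 29 bp wide, and the widest was 29 bp. Just outside the limit lay 240 U transcripts with 2 exons whose only gap was 30 to 39 bp. Over spliced autosomal U transcripts the median gap was 1349 bp, so few entries lay near the limit on either side. The members were divided almost evenly between strands, with 32117 on plus and 32954 on minus, and 146 repeated the position and strand of another member.

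The members were short. Their median length was 453 nt (452 to 454), with quartiles of 337 and 604 nt and with 90% of them at or under 873 nt. A length of at least 200 nt, the usual lower bound for a long noncoding RNA, was reached by 92.4% (60105; interval 92.2% to 92.6%), and 8.53% (5550) were longer than 1000 nt. On single autosomes the median lay between 441 and 460 nt. The 6454 unspliced autosomal transcripts with the prefix FT had a median of 1713 nt (1679 to 1750), longer than the members on 19 of 19 autosomes, and 77.0% of them exceeded 1000 nt. Spliced autosomal U transcripts had a median exonic length of 716 nt. The labels and the file header do not explain the prefixes.

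The length distribution had several peaks rather than 1. Counts per 50 nt rose to 7609 members at 400 to 449 nt, fell to 4466 at 500 to 549 nt, rose again to 5196 at 550 to 599 nt and then declined to 967 at 750 to 799 nt. The most frequent single length was exactly 600 nt, with 287 members. There were 173 members of 599 nt and 92 of 601 nt, while the next most frequent length, 454 nt, had 192 members. Adapter-ligated cDNA was selected at an average of 300 bp per the labels' protocols. Whether any peak in transcript length follows from library or assembly steps was not tested.

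**Figure D1:**
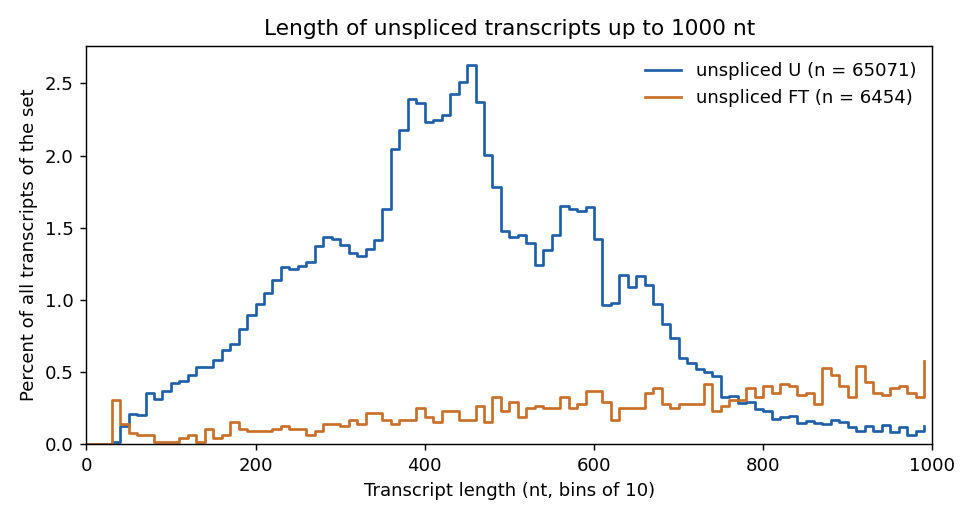
Lengths of unspliced autosomal transcripts up to 1000 nt, in bins of 10 nt (horizontal axis, nt), as a percent of all transcripts of each set (vertical axis), for the U members (blue, n = 65071) and FT transcripts (orange, n = 6454). The U members peak at 450 to 459 nt, with a second rise that ends at 600 nt, whereas the FT transcripts rise slowly across the plot.

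The 5 longest members were not alike. The longest, U342888-1, was a single block of 50673 nt on minus (chr17:74520969-74571641) and the only one beyond 10 kb. It overlapped no FT transcript of its strand. The next, U028634-1, was 8611 nt on minus (chr7:66501548-66510158) and lay 53.1 kb from a spliced transcript named Snhg14, in the interval that holds the coding gene Ube3a on the plus strand. Snhg14 is an imprinted host gene of small nucleolar RNAs whose long form runs antisense across Ube3a. U192701-1 (8263 nt on minus, chr7:112971767-112980029) lay inside an intron of the opposite strand, and U013908-1 (7911 nt on plus, chr12:45415566-45423476) lay outside introns. U093616-1 (7869 nt on plus, chr15:62008443-62016311) lay in a same-strand intron of Pvt1, a noncoding gene beside Myc. The 4 members after the longest each overlapped an FT transcript of the same strand. The 3 shortest members were U362397-1 (22 nt, chromosome 18), U362360-1 (29 nt, chromosome 15) and U055875-1 (34 nt, chromosome 1).

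Members were spread over all autosomes but were unevenly spaced. There were 27.0 members per Mb, from 23.8 on chromosome 3 to 33.2 on chromosome 11, and their bases took up 0.791% of the length of both strands. Between neighbours, strands together, the median spacing was 15490.5 bp (15179 to 15783), with quartiles of 2804 and 45240.5 bp. The mean was 36523 bp, or 2.36 times the median. Random positions with the same mean spacing (a geometric spread) would have a median of 25316 bp, so part of this ratio arises without clustering. On single autosomes the median spacing lay between 12097.5 bp (chromosome 12) and 18201 bp (chromosome 10). Of the 65052 neighbouring pairs, 15.2% lay within 1000 bp of each other or overlapped, and 31.9% lay within 5000 bp. The shares that random positions would give were not computed. The widest spacings were 7154967 bp (chr7:39350482-46505448), 2114493 bp (chr8:20026711-22141203) and 2002516 bp (chr1:85341394-87343909). How much of them could take mapped reads was not tested. The FT transcripts, which were fewer, had a median spacing of 163145 bp.

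A chain was taken as at least 3 members whose neighbours lay at most 5000 bp apart, strands together. There were 4211 chains holding 16520 members (25.4%; interval 25.1% to 25.7%), from 21.7% of the members of chromosome 10 to 28.8% of those of chromosome 12. Random positions would also form chains, and their share was not computed. A further 8466 pairs were formed, and 31619 members (48.6%) stood alone. Most chains were small: 2470 held exactly 3 members, and 76 held 10 or more, with at most 25. The median span of a chain was 5.72 kb. Chained members had a median length of 466 nt and lone members 448 nt, and 12.1% of chained members against 6.14% of lone members lay in same-strand introns. On 1 strand only were 2147 chains (51.0%), and 1425 (57.7%) of the chains of 3.

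A chain at the imprinted antisense RNA Airn was among the largest, and chains at Kcnq1 and near Snhg14 were tied with the eighth largest. At Airn, 22 members, all on plus, filled 57.9% of chr17:12935399-12974844. They ranged from 301 to 4087 nt with a median of 592.5 nt, all had different lengths, and all lay in a same-strand intron. Igf2r, the insulin-like growth factor II receptor gene to which Airn is antisense, is on minus in the annotation. At Kcnq1, a chain of 17 members, all on minus, filled 58.5% of chr7:150415198-150450975, between the transcripts named Gm28821 and 4933417O13Rik. Their lengths ran from 485 to 4252 nt with a median of 609 nt. The annotation places the plus-strand potassium channel gene Kcnq1 and the minus-strand antisense RNA Kcnq1ot1 between those names. Near Snhg14, 17 members, all on minus, filled 42.0% of chr7:66480421-66528156, with lengths of 190 to 8611 nt and a median of 660 nt. The Kcnq1 and Snhg14 chains were tied in size with the eighth largest chain and were singled out after their positions were seen. Also tied, with 17 members each, were chains away from these loci. They lay at chr12:23096642-23125481 (14 on plus, 3 on minus) and chr12:24623028-24651835 (4 on plus, 13 on minus).

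The other large chains were of different kinds. The chain with most members, 25 (17 on plus and 8 on minus), lay at chr6:47603499-47635375 and held only 5 distinct lengths, 8 of its members being 271 nt long. A chain of 22 at chr6:47688345-47721035 had 17 members on plus and 5 on minus, and again 8 of 271 nt. A chain of 19 at chr6:114492994-114546688, all on minus, held 4 distinct lengths, with 8 members of 372 nt. These 3 chains thus consisted largely of repeated lengths, unlike the chains at Airn and Kcnq1. At chr8:49884576-49928982, 22 of 23 members were on minus with a median of 589 nt, and the nearest named transcript, Gm19744, lay 11.8 kb away. The chain at chr12:24906238-24935175 overlapped the pseudogene Gm47446 (4 members on plus, 14 on minus), and the one at chr15:85483495-85528408 had 14 on plus and 4 on minus. The chain at chr1:87385709-87409379 overlapped the pseudogene Gm2427. Its 17 members, 9 on plus and 8 on minus, all lay in introns of both strands.

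Neighbouring members tended to lie on the same strand. Of the 65052 neighbouring pairs, 43396 (66.7%; interval 66.3% to 67.1%) were on the same strand, against 50.1% given by the strand composition of each chromosome. The share was above the composition on 19 of 19 autosomes, from 63.6% on chromosome 15 to 68.9% on chromosome 14. It was 80.3% for spacings of 101 to 500 bp, 71.9% for 2001 to 5000 bp, 62.0% for 20001 to 50000 bp and 57.8% beyond 100 kb. Overlapping neighbours shared a strand in 66.8%, less often than those 1 to 100 bp apart (79.9%), and the intervals of these shares did not overlap. By rank, the share was 60.0% for the second neighbour, at a median distance of 45.3 kb, 54.4% at rank 5 (138 kb), 51.8% at rank 10 (298 kb) and 50.3% at rank 20 (630 kb).

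Neighbouring FT transcripts of 1 exon shared a strand in 59.2% of pairs, in 95.5% where they overlapped and in 51.1% beyond 100 kb. Overlapping pairs thus had the highest share among the FT classes, unlike among the members. In the last class the members' share (57.8%, 56.6% to 59.1%) lay above that of FT (49.5% to 52.7%), with no test of the difference. This class has no upper limit and held 6163 of 65052 member pairs but 3812 of 6435 FT pairs. Spacings within it were not matched between the sets, so the shares are not at like distances.

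**Figure D2:**
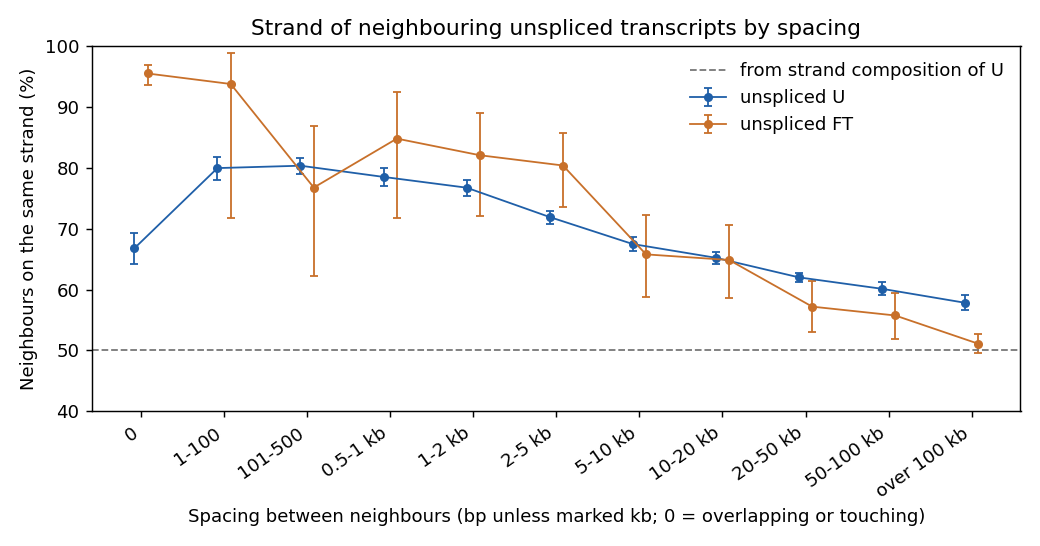
Share of neighbouring pairs on the same strand (vertical axis, percent) by the spacing between them (horizontal axis), for U members (blue) and unspliced FT transcripts (orange), with Wilson 95% intervals; the dashed line is the share from the strand composition of the members. The U share falls from 80.3% at 101 to 500 bp to 57.8% beyond 100 kb and stays above the line throughout.

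Consecutive members on 1 strand formed 21675 runs with a mean of 3.0 members. Single members made up 8663 runs, while 890 runs held at least 10 members (13112 members, 20.2%) and 13 held at least 40. The longest run had 165 members on plus (chr14:7217106-8624999), of which 88 lay in same-strand introns. The next were 130 on minus at chr13:65389206-66926583, with 121 in such introns, and 125 on plus at chr14:42080229-44519530, with 111. Then came 80 on plus at chr2:174807697-176258732 and 68 on plus at chr4:41721839-42849129. The 3 runs of longest span were a run of only 3 members on minus around the widest spacing (chr7:39350265-46539891), the chromosome 14 run of 125, and 28 members on plus over 2269518 bp of chr2:40332031-42601548.

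The longest runs were marked by repeated lengths. In the 13 runs of 40 or more, 520 of 942 members (55.2%) had exactly the length of another member of their run, against 548 of 12170 (4.50%) in the 877 runs of 10 to 39. A longer run offers more chances of a match, and this was not adjusted for. On chromosome 14, the run of 165 held 10 members of 79 nt and the run of 125 held 12 of 424 nt. On minus at chr6:114449730-114574371, 16 members of 372 nt followed each other at a median step of 4888 bp. On minus at chr5:10903836-11885334, 11 members of 667 nt followed at a median step of 85401 bp. In all, 29 groups of at least 5 members of 1 length, together 203 members, lay in 12 runs. Sequence of near-identical copies can share reads, so the entries of these runs are uncertain as separate transcripts. Copy number was not tested.

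Members lay more often on the strand with the smaller protein-coding cover of a stretch, and the margin was wider where cover differed more between the strands. Opposite refers here to strand within a stretch, and no member was placed against a single gene. This comparison was added after the data were seen. It used 3257 stretches between neighbouring spliced transcripts that could be named from their exon and intron lengths, with the coding genes between the same names taken from the annotation. These stretches spanned 2158 Mb and held 56534 members (86.9%). Over all of them, 58.9% of members lay on minus where plus-strand coding cover was the larger, and 57.5% lay on plus where minus-strand cover was the larger. In the 162 stretches in which coding genes of 1 strand covered at least 90% and those of the other strand under 5%, 554 of 606 members (91.4%; interval 88.9% to 93.4%) lay opposite to the coding genes. The density was 21.1 members per Mb on the opposite strand and 1.98 on the coding strand, with 10.04 per Mb and strand in the 574 stretches that had no protein-coding gene. There, 49.9% of 2457 members were on plus. Where the coding genes were on plus, 342 of 380 members lay on minus, and where they were on minus, 212 of 226 lay on plus. Of the 128 such stretches with members, 119 held more on the opposite strand and 7 more on the coding strand.

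The share on plus moved stepwise with coding cover. It was 94.1% where minus-strand coding genes exceeded plus-strand ones by 90 to 100 percentage points, 62.8% at 30 to 60 points, 49.5% where they were within 10 points of each other, 36.1% where plus-strand coding genes exceeded by 30 to 60 points and 9.84% at 90 to 100 points. Unspliced FT transcripts lay opposite to the coding genes in 36 of 50 cases (72.0%; interval 58.3% to 82.5%) in the 162 stretches. No label or header states how the list was filtered with respect to known genes. Removal of entries on the coding strand and a low output of unspliced RNA from that strand cannot be told apart in this list.

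**Figure D3:**
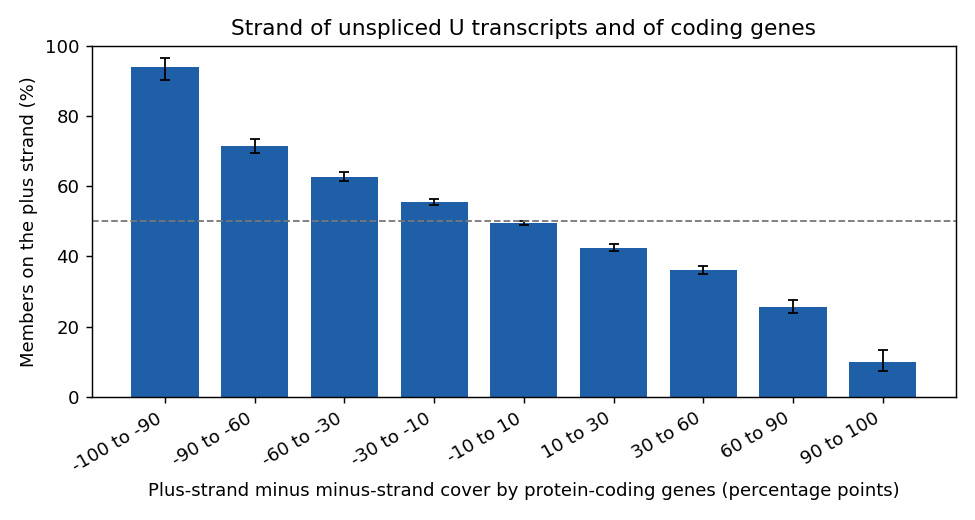
Share of members on the plus strand (vertical axis, percent, with Wilson 95% intervals) in stretches grouped by plus-strand minus minus-strand cover with protein-coding genes (horizontal axis, percentage points). The share falls from 94.1% at the left, where coding genes are on minus, to 9.84% at the right, where they are on plus, and the dashed line marks equal shares.

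Among the stretches of 1 coding strand, that of Kcnq1 held most members. All 38 members of chr7:150326511-150508676 were on minus, opposite to Kcnq1, with a median of 579.5 nt. At the clustered protocadherin genes, which encode neuronal adhesion proteins, all 15 members of chr18:37338177-37911781 were on minus. Plus-strand coding genes covered 100% of this stretch, which holds 54 coding genes, most of them protocadherins. Opposite to Nrg3, a neuregulin ligand gene, lay 14 of 15 members. The stretch of Faf1 and Cdkn2c, which encode a Fas-associated factor and a cyclin-dependent kinase inhibitor, had 12 of 16 members on minus. Plus-strand coding genes covered 90.1% of it. The stretch of Dym, Rpl17 and BC031181 had 12 of 13 on minus, with 90.3% plus-strand cover. In a stretch of several genes, opposite refers to the strand with the larger coding cover, and the strand of each gene is not given. All 12 members at Brinp3, all 11 at the forkhead gene Foxn3 and all 10 at Lhfpl3 were opposite to the gene, as were 9 of 10 at Kirrel3, an adhesion protein gene. The stretch that ends at Fendrr and holds Irf8, Cox4i1, Emc8, Gm20388 and Gm27021 was the exception among these 10. Of its 12 members, 5 were opposite and 7 on the coding strand. On the opposite strand, the annotation holds genes not annotated as coding in the stretches of Kcnq1, Nrg3, the protocadherins, Brinp3, Lhfpl3 and Kirrel3. It holds none in the other stretches named here. Which of all these genes the members lay in was not tested.

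Members lay in same-strand introns of spliced transcripts of the list more often than in introns of the opposite strand. An intron was a gap of at least 30 bp between joined exons. Wholly inside a same-strand intron lay 5134 members (7.89%; interval 7.69% to 8.10%) and inside an opposite-strand intron 2577 (3.96%; 3.81% to 4.11%), with 344 inside both. Introns covered 4.40% of the length (mean of the strands), so the shares were 1.79 and 0.901 times the cover. The ratios differed with the prefix of the host. For the same strand they were 1.79 with U hosts, 1.81 with FT, 2.94 with BROAD and 4.59 with WHITEHEAD hosts. For the opposite strand they were 0.916 and 0.908 with U and FT hosts, but 1.18 and 1.59, above the cover, with BROAD and WHITEHEAD hosts. The same-strand share was above the opposite-strand share and above the cover on 19 of 19 autosomes, and the opposite-strand share was below the cover on 14. The same-strand share ran from 5.13% on chromosome 18 to 14.04% on chromosome 14, and the opposite-strand share from 2.52% on chromosome 17 to 8.68% on chromosome 12. Of the members in same-strand introns, 88 and 111 on chromosome 14 and 121 on chromosome 13 lay in the long runs with repeated lengths described above. Unspliced FT transcripts had a same-strand share of 7.89% (509) and an opposite-strand share of 2.77% (179).

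**Figure D4:**
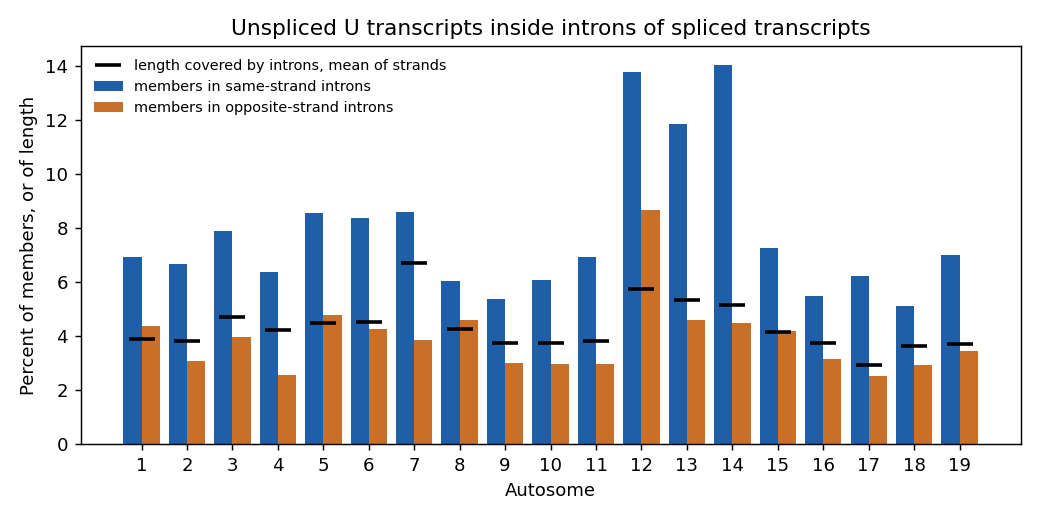
Percent of members of each autosome (horizontal axis) that lay wholly inside same-strand introns (blue bars) and opposite-strand introns (orange bars) of spliced transcripts of the list; black marks give the percent of the length covered by introns, as the mean of the strands. The blue bar exceeds the orange bar and the mark on all 19 autosomes, with the highest blue bars on chromosomes 12, 13 and 14.

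Most members lay outside spliced transcripts altogether. Outside the spans of spliced transcripts of both strands lay 55725 members (85.6%). Exons of spliced transcripts of the same strand were overlapped by 2.79% (1817) and those of the opposite strand by 0.974% (634). An unspliced FT transcript of the same strand was overlapped by 6.89% of members and one of the opposite strand by 0.194%. Of the FT transcripts, 75.4% overlapped a member on the same strand and 2.14% on the opposite one, so where both sets covered a position they mostly shared the strand.

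Introns that held members were usually long and held 1. The 5134 members lay in 2949 introns, by smallest host, of which 1976 held exactly 1 member and 138 held 5 or more (1098 members). The median host intron was 20.7 kb, and 812 members lay in introns over 100 kb. With the intron divided into 5 equal parts from its 5′ to its 3′ end, these held 20.4%, 21.5%, 20.1%, 20.3% and 17.7% of the members. In introns over 10 kb the parts held 23.2%, 21.3%, 17.8%, 18.7% and 18.9%, with the lowest share in the middle part. Members in same-strand introns had a median length of 469 nt, those in opposite-strand introns only 450 nt and those outside 452 nt.

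The 8 introns with most members lay on 5 autosomes. An intron on plus at chr14:7526033-7879314 held 27 members and one on plus at chr17:12934291-13007361, which lies within the span of the transcript named Airn, held 25. An intron of 2610307P16Rik at chr13:28864536-28975183 held 21 and one of Rasgef1b at chr5:99806195-99987910 held 15, both on minus. The others were chr14:5707878-5824490 on minus with 16, and chr12:23330179-23587701 on plus, chr13:66036663-66286053 on minus and chr14:8074515-8398332 on plus with 15 each. The introns at chr14:7526033-7879314 and chr14:8074515-8398332 lie within the run of 165 members. The intron at chr13:66036663-66286053 lies within the run of 130. Entries of these runs are uncertain as separate transcripts. The introns of 2610307P16Rik and Rasgef1b had 5 and 4 host transcripts, and each of the others had 1.

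Of 13776 spliced transcripts with at least 3 exons, 8244 (59.8%) could be named, from 3721 genes. Same-strand members lay in introns of 1115 of these genes, among them 436 annotated as lincRNA, 343 as antisense and 102 as protein-coding. Of the 3721 named genes, 294 were protein-coding. The totals for lincRNA and antisense genes are not given, so these counts do not show which type held members more often. Opposite-strand members lay in introns of 731. The noncoding gene 2610307P16Rik held most, with 50 same-strand and 10 opposite-strand members. Naaladl2, which encodes a peptidase-like protein, had 42 and 15, over introns of 1272930 bp. Airn had 35 and 5, Pvt1 26 and 6, and Dleu2, a noncoding host gene of microRNAs, 22 and 5. The noncoding gene 3110039I08Rik had 28 and 9, Rasgef1b, an exchange factor gene for Ras-family proteins, 23 and 10, and the pseudogene Gm47446 21 and 6. The semaphorin gene Sema6d held 20 same-strand members and no opposite-strand one. Per 10 kb of intron, Airn held 2.97, Dleu2 2.81 and Gm47446 2.80 same-strand members, against 0.758 for Pvt1 and 0.330 for Naaladl2. Denser than these were Miat (4.09) and Six3os1 (3.29), with 3 and 5 members in introns of 7331 and 15220 bp.

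The hosts with most opposite-strand members were partly multigene families. The immunoglobulin heavy-chain constant genes Igha and Ighg3 came first, with 19 and 18 opposite-strand members and 21 and 15 same-strand members. Naaladl2 was next with 15 opposite-strand members. Gm2427 and the immunoglobulin gene Ighg1 had 11 each, with 10 and 12 same-strand members. The immunoglobulin transcripts overlap each other, so a member can be counted for several of them.

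Of 38 known noncoding genes looked for, 25 could be matched on the autosomes, 14 were named in the list and 10 held a same-strand member. Beside Airn, Pvt1 and Dleu2 these were Six3os1, which is divergent from the homeobox gene Six3, with 5, and the noncoding genes Miat with 3, Lncpint with 2 and Tug1 with 1. Nespas, an imprinted antisense RNA of the Gnas locus, and Snhg14 held 1 each. Sox2ot, whose introns hold the pluripotency gene Sox2, had 3 same-strand members of 669 to 699 nt and 9 opposite-strand members. Fendrr held 2 opposite-strand and no same-strand members. Evx1os, Hotairm1 and Neat1 held none, but their introns took up only 3606, 1218 and 309 bp, so this absence says little.

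Outside spliced loci, members were most frequent just beyond the ends and on the same strand. For each of the 55725 members, the distance to the nearest of 15087 spliced loci was taken separately on each side and for each strand, so a member can count in several arrangements. Within the first kb, 1018 lay on the same strand beyond the 3′ end, 4.04 times the mean of 252.2 per kb at 10 to 20 kb. Before the 5′ end on the same strand there were 678, or 2.51 times. On the opposite strand, 307 lay before the 5′ end, the divergent arrangement, and 343 beyond the 3′ end, or 1.77 and 1.88 times their means at 10 to 20 kb. Over the first 5 kb the counts were 3011, 2377, 1184 and 1289. Missing end exons of the spliced transcripts and separate RNAs cannot be told apart in these counts.

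**Figure D5:**
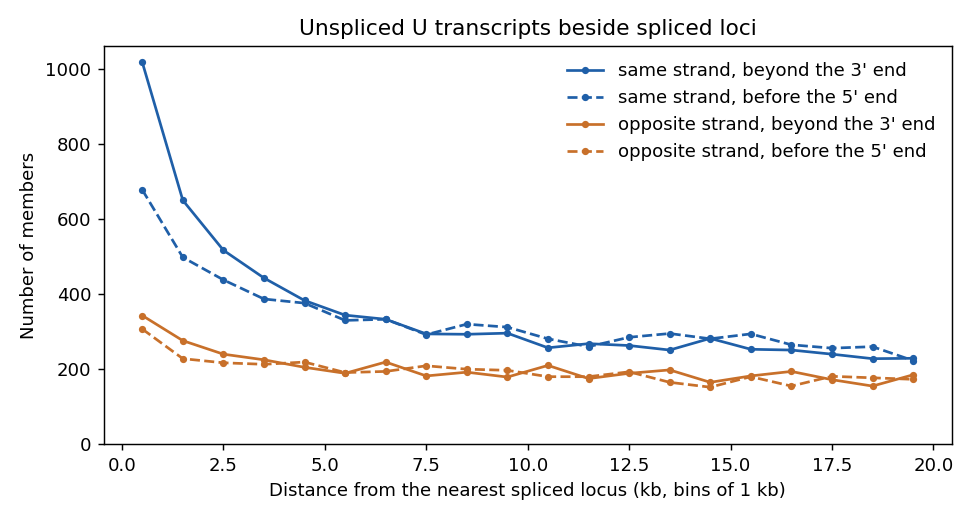
Number of members per kb (vertical axis) by distance from the nearest spliced locus of each side and strand (horizontal axis, kb), on the same strand (blue) and the opposite strand (orange), beyond the 3′ end (solid) and before the 5′ end (dashed). The same-strand curve beyond the 3′ end starts highest, at 1018, and the opposite-strand curves start at 343 and 307.

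The number in a member's name went with its strand and length. Name numbers ran from 1 to 363405. Of the 2036 members numbered up to 20000, 97.6% were on plus with a median length of 991 nt, and of the 2468 numbered 20001 to 40000, 1.66% were on plus with a median of 873.5 nt. From 60001 on, 46.6% to 51.9% of each successive block of 20000 numbers were on plus. Members numbered 280001 to 300000 had a median of 388 nt, with 0.666% over 1000 nt, against 49.6% in the first block. The numbering was thus not independent of length, and the score was 0 for every member.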

How the data were processed

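Strand-specific libraries of polyadenylated RNA and of RNA depleted of ribosomal RNA, 1 each, were made per the labels' protocols. TopHat, with its version not given in the sources used here, and mm9 are named in the submitters' processing notes. The authors deposited 1 BED list of 12 columns, without counts. Labels and header do not state how it was assembled and filtered. The deposited score was 0 for every member and was not used. Positions are mm9, counted from 1.

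Blocks with gaps under 30 bp were joined. Spacing, chains, runs and introns were computed in Python 3.11.15 with numpy 2.4.6, pandas 2.3.3 and scipy 1.17.1, and the scripts were tested on simulated lists. Spliced transcripts with at least 3 exons were named where a run of intron, exon and intron lengths matched a gene of the same chromosome and strand of GENCODE M21 (GRCm38). No coordinates were converted. Stretches between adjacent named genes were used where both builds gave lengths within 10% of each other and at least 1000 bp. Coding cover was measured in the annotation and members in the list.

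Named were the longest and shortest members, largest chains, longest runs, widest spacings, fullest introns and fullest hosts, by fixed numbers of each, and hosts on a list of known noncoding genes. The chains tied with the eighth largest were named beyond the fixed number. The stretches named were the 10 of 1 coding strand with most members. The members and lists were chosen with earlier results of these data known.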

Additional observations from a re-analysis of the deposited data

How the results depend on the processing

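Values depended mainly on definitions, and the same-strand intron share stayed above the opposite-strand one under each alternative that gave both. Joining gaps under 100 bp gave a median length of 455 nt, a median spacing of 14962 bp and 26.2% of members in chains. Members of at least 200 nt gave 469 nt, 16849 bp and 23.6%. Merging overlapping members gave a spacing of 15984 bp, 24.3% in chains and 66.3% of neighbours on the same strand. Neighbours of the same strand alone were spaced at 27423 bp. Chains took in 8.42% of members with a linking distance of 1000 bp, 57.2% with 20000 bp, 51.4% from 2 members on and 8.50% from 5 on. Neighbours at most 50000 bp apart shared a strand in 68.9%. Same-strand and opposite-strand intron shares were 8.17% and 4.18% when 50% of the member had to lie inside, 4.84% and 2.29% without U hosts, and 6.64% and 3.32% with introns of at most 100000 bp. The following were chosen after seeing the data. Without runs of 40 or more, 66.3% of neighbours shared a strand and 7.32% of members lay in same-strand introns. With coding cover of at least 50%, 73.8% lay opposite to coding genes; without the Kcnq1 stretch it was 90.8%. Leaving out chromosome 11 kept the length, spacing, chain, neighbour and intron values within their intervals, and was not run for the coding stretches. No paired analysis was possible because the list holds no value per library. With no counts, the depth behind a short or lone entry is unknown.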
